A study of Mus musculus with 6 samples.

Results

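The genes of the mitochondrial genome of the mouse were followed in RNA of the colon epithelial fraction, in wild type and Lingo2 mutant animals. They were all the genes whose symbol begins with mt- in the deposited count table. Of them, 11 were found by the symbol that the authors' deposited comparison gives and 26 by their Ensembl ID. They make up all 37 annotated genes of the mitochondrial genome, of 46078 gene rows in all, and comprise 2 rRNA genes, 13 protein genes and 22 tRNA genes. On the annotated strands, 28 of them are on the plus strand, which carries the products of heavy-strand transcription, and 9 on the minus strand, which carries the products of light-strand transcription. The 9 are mt-Nd6 and 8 tRNA genes.

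Mitochondria keep a small circular genome that encodes the rRNAs of their own ribosome, tRNAs to read its messages, and a few membrane subunits of the oxidative phosphorylation complexes. Each strand is transcribed into long precursors, and the tRNAs that lie between the other genes are cut out to release them, so that genes of a strand share transcription but can differ in the stability of their mature RNA. Surface cells of the colon draw much of their energy from the oxidation of butyrate in mitochondria.

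The study sequenced 6 libraries, 3 from wild type mice and 3 from mice labelled as mutant for Lingo2, a gene for a transmembrane protein with leucine-rich repeats. All mice were 2 months old and kept without treatment, and the labels give both groups the same protocols. The cells were washed from the colon with EDTA and DTT, and total RNA was made into stranded libraries after removal of ribosomal RNA with Ribo-Zero Gold. The labels name neither the strain nor the kind of Lingo2 allele. They also leave unsaid whether each library is a different animal, and p-values then measure only how far these libraries spread, which may be technical. Ribo-Zero Gold also carries probes to mitochondrial rRNA, so rRNA reads are those left after depletion.

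Wild type libraries held 25010618 to 28029583 gene reads (reads assigned to a gene), and the mutant libraries were shallower, with 7060769 to 13047682. A count of 0 allows up to 3 reads, or 0.107 to 0.120 per 1000000 gene reads in a wild type library and 0.230 to 0.425 in a mutant library. All 12 markers of colon epithelium fixed for this comparison were tested and none was called, with a summed level of 13931 to 14570 CPM (counts per 1000000 gene reads, scaled with TMM factors) in wild type libraries against 13035 to 14882 in mutant ones. Lists for 8 other cell types were measured as well, and no marker of any list was at 0 in all libraries. All these lists were chosen with earlier results of these data known. Markers of T cells and intraepithelial lymphocytes fell in mutant libraries, 11 of 11, from a summed 442 to 531 CPM in wild type to 187 to 215 CPM, each by edgeR's quasi-likelihood test at an adjusted p under 0.05. Of the other lists, 2 of 8 macrophage and dendritic cell markers and 1 of 7 fibroblast markers were called lower and 1 of 3 tested endothelial markers higher. Over all 16757 genes tested, 1.52% were called lower and 1.04% higher. No marker of B and plasma cells, smooth muscle (5 of 6 tested), erythrocytes or enteric neurons and glia (2 of 5 tested) was called. In bulk RNA, fewer cells of a type and less RNA per cell cannot be told apart.

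Mitochondrial genes took up a smaller share of the gene reads in the mutant libraries. Of all gene reads, 48.4%, 46.8% and 45.3% fell on the 37 genes in wild type libraries 1 to 3, and 37.9%, 35.7% and 39.8% in mutant libraries 1 to 3. Every mutant library was below every wild type library. The means were 46.8% ± 1.597 in wild type and 37.8% ± 2.06 in mutant (SD, n = 3 each), a difference of -9.001 percentage points with an exact 2-sided permutation p of 0.1, the smallest that 3 against 3 libraries allow. The 9 shares and ratios tested in this way gave Benjamini-Hochberg adjusted values of 0.18 to 0.7, so none could pass 0.05. The 95% Wilson intervals of these shares were at most 0.0353 points to each side, for counting error only.

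In shares of all gene reads, the rRNA genes differed by -7.54 points, the protein genes by -1.46 and the tRNA genes by -0.00295. The rRNA share of gene reads was 34.8%, 32.2% and 32.9% in wild type and 25.2%, 23.2% and 28.7% in mutant libraries. The groups did not overlap, with means of 33.3% ± 1.34 and 25.7% ± 2.80 (SD, n = 3 each) and an exact permutation p of 0.1. The protein genes held 13.7%, 14.6% and 12.4% in wild type against 12.7%, 12.5% and 11.1% in mutant libraries. These groups overlapped, since mutant libraries 1 and 2 were above wild type library 3, and the means of 13.6% ± 1.12 and 12.1% ± 0.882 (SD, n = 3 each) differed with an exact permutation p of 0.3. With reads in no feature and ambiguous reads added to the denominator, the protein groups no longer overlapped (-1.69 points, exact permutation p of 0.1). With mt-Rnr2 left out of numerator and denominator, the difference was -0.553 points for the rRNA and -3.82 for the protein class, of -4.38 in all. The exact permutation p was then 0.3 for the rRNA and 0.1 for the protein class. The tRNA genes held 0.0210%, 0.0206% and 0.0213% against 0.0183%, 0.0205% and 0.0152%. The mutant libraries were lower without overlap (exact permutation p of 0.1), with mutant library 2 close to wild type library 2. They overlapped (exact permutation p of 0.2) when Gm26917 and Gm42418, transcripts that resemble nuclear ribosomal RNA, were left out of the denominator. The plot of shares of gene reads shows these values.

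**Figure D1:**
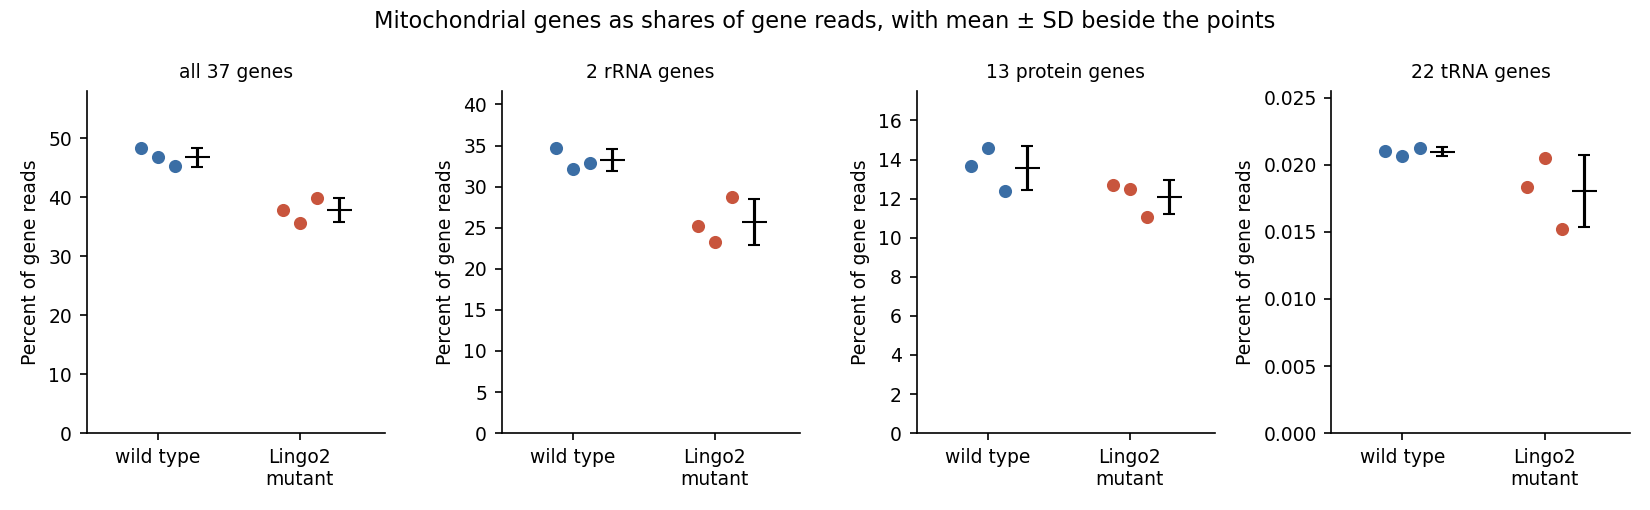
Percent of gene reads (vertical axes, starting at 0) on all 37 mitochondrial genes and on the rRNA, protein and tRNA genes, 1 point per library with the mean and SD of each genotype (n = 3) beside it. All mutant points lie below all wild type points for the total, the rRNA and the tRNA genes, and the groups overlap for the protein genes.

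Some other quantities of the libraries also differed between the genotypes. The transcripts Gm26917 and Gm42418 held 1.27% to 1.59% of gene reads in wild type libraries against 1.69% to 3.51% in mutant ones. Of the alignments in the count table, 36.5% to 36.9% of a wild type library were not unique, against 30.8% to 33.9% of a mutant library. Those outside any annotated feature came to 18.5% to 22.1% of a wild type library and 23.6% to 27.6% of a mutant one. The 5 erythrocyte markers, 0 of which were called, summed to 373 to 624 CPM in wild type libraries and to 218 to 367 CPM in mutant ones. The macrophage and dendritic cell markers (78.5 to 90.7 against 58.6 to 116 CPM), fibroblast markers (331 to 974 against 224 to 494 CPM) and endothelial markers (12.2 to 16.2 against 14.1 to 14.8 CPM) overlapped in their sums. The part that these quantities, the depth and the marker lists have in the mitochondrial share was not tested.

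Within the mitochondrial reads the genotypes were closer. The rRNA genes held 71.7%, 68.7% and 72.6% of mitochondrial reads in wild type and 66.4%, 65.0% and 72.1% in mutant libraries, with means of 71.0% ± 2.03 and 67.8% ± 3.78 (SD, n = 3 each). The protein genes held 28.2%, 31.2% and 27.4% against 33.5%, 34.9% and 27.8%, with means of 28.9% ± 2.03 and 32.1% ± 3.77. Both classes overlapped between genotypes, because mutant library 3 lay within the wild type range, and each difference had an exact permutation p of 0.3. Without the reads of mt-Rnr2 in both numerator and denominator, the sign of both differences turned. They were 0.238 points for the rRNA class and -0.232 points for the protein class, with groups that overlapped in both. The tRNA genes held 0.0434%, 0.0441% and 0.0470% of mitochondrial reads in wild type and 0.0484%, 0.0575% and 0.0381% in mutant libraries, where the mutant values lay on both sides of the wild type values (exact permutation p of 0.7).

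Reads counted on the 9 light-strand genes took up a larger share of the mitochondrial reads in mutant libraries. The share was 0.0920%, 0.0989% and 0.0958% in wild type and 0.125%, 0.123% and 0.102% in mutant libraries. All mutant values lay above all wild type values, with means of 0.0955% ± 0.00345 and 0.117% ± 0.0127 (SD, n = 3 each) and an exact permutation p of 0.1. Of the reads on these genes, 51.0% to 55.4% were on mt-Nd6 in a wild type library and 53.6% to 62.9% in a mutant library. The strand setting of the counting is not given, so reads from the opposite strand at these genes cannot be told apart. Without the members of which over 50% of 50-base windows have a nuclear copy, mt-Co1 among them, the difference was 0.0343 in place of 0.0214 points and the groups overlapped (exact permutation p of 0.2). The plot of composition within the mitochondrial reads sets these shares side by side.

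**Figure D2:**
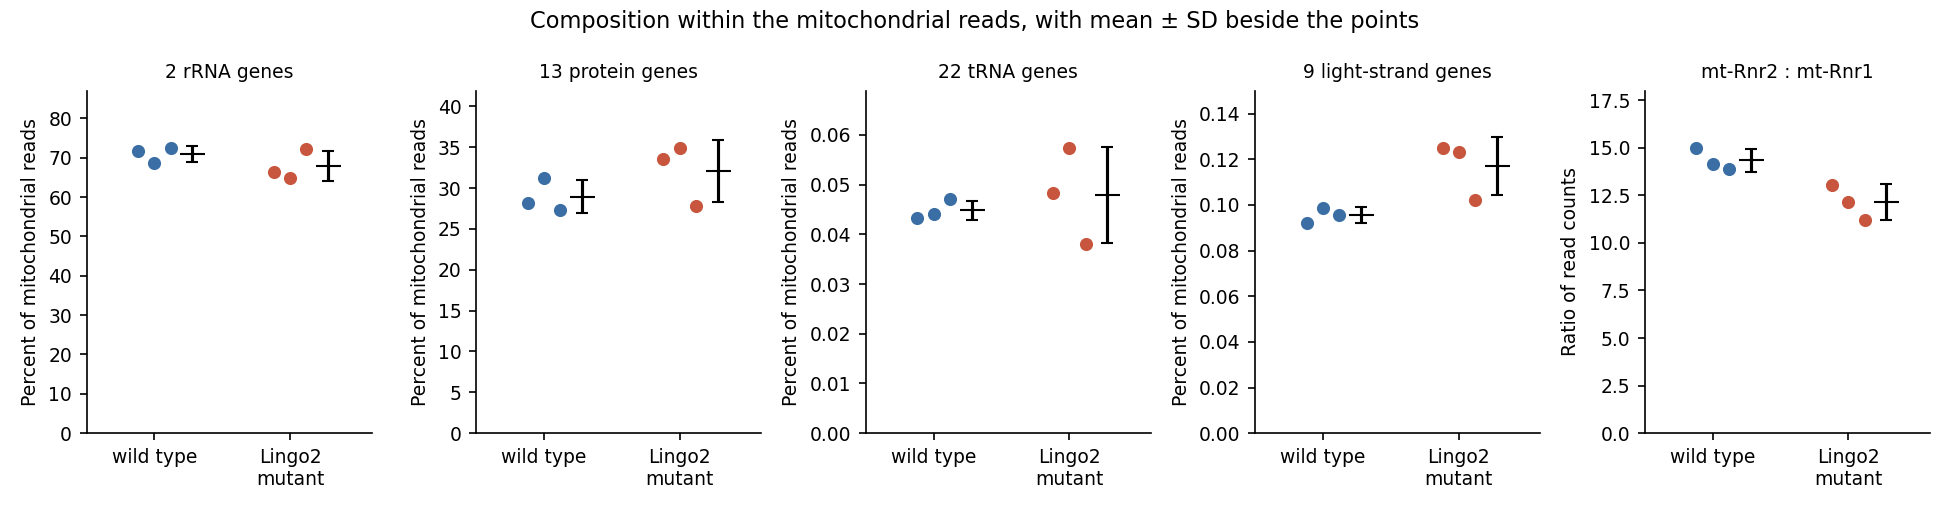
Percent of mitochondrial reads on the rRNA, protein, tRNA and light-strand genes, and the ratio of mt-Rnr2 to mt-Rnr1 read counts (vertical axes, starting at 0), 1 point per library with the mean and SD of each genotype (n = 3). The genotypes are separate for the light-strand share and the rRNA ratio, and overlap in the other panels.

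In the test of single genes, 14 of the 37 members passed the filter on low counts: both rRNA genes, 9 protein genes and 3 tRNA genes. A further 5 had reads and were not tested, and 18 had no read in any library. By edgeR's quasi-likelihood test, 1 member, mt-Tp, was called lower in mutant libraries and 0 higher at an adjusted p under 0.05, beside 1.52% of all 16757 genes tested called lower and 1.04% called higher. At an unadjusted p under 0.05 the count was 6, beside 18.7% of all genes. DESeq2's Wald test called 4 members lower, mt-Rnr2, mt-Nd1, mt-Co1 and mt-Tp, beside 2.63% of all genes lower, 1.62% higher and 4.25% in either direction. The authors' deposited table lists 11 members and gives the same 4 an adjusted p under 0.05, beside 2.8% of its genes lower, 1.9% higher and 4.71% in either direction.

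The fitted log2 fold change was below 0 for 13 of the 14, with a median of -0.39, beside a median of 0.0011 and 49.8% below 0 over all genes tested. The filter asked for 0.526 CPM in at least 3 libraries. The gene mt-Tm reached it in mutant libraries alone, mt-Co2 and mt-Co3 reached it in 3 wild type and 2 mutant libraries, and the other 11 in all 6, so these counts do not describe all members. On the CPM scale with TMM factors, 6 of the 14 were lower in every mutant library than in any wild type library, beside 11.8% of all genes, and 1 was higher in every mutant library, beside 12.3%. The 6 were mt-Rnr2, mt-Nd1, mt-Tc, mt-Co1, mt-Co3 and mt-Tp, and the 1 was mt-Tm.

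Levels below are RPKM, reads per kilobase of gene and per 1000000 gene reads without TMM factors, which adjust for gene length. They do not adjust for rRNA depletion or for reads left uncounted because they were not unique. Ranks between genes are therefore ranks of counted reads per kilobase. The rRNA of the large mitochondrial ribosomal subunit, mt-Rnr2 (chrM:1094-2675, GRCm38, plus strand), had the highest level of all members in every library. Its level was 205949, 189818 and 193683 in wild type and 147903, 135586 and 166735 in mutant libraries. All mutant libraries were lower. The log2 fold change was -0.62 ± 0.25 (SE), which edgeR's test did not call (adjusted p = 0.202), whereas DESeq2's Wald test did (adjusted p = 0.000538). With no filter on low counts edgeR's test called mt-Rnr2 as well (adjusted p = 0.00857).

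The rRNA of the small subunit, mt-Rnr1 (chrM:70-1024, plus strand), stands directly before it, with the gene mt-Tv alone between them. Its level was 22738, 22250.1 and 23144 in wild type and 18756, 18497 and 24662 in mutant libraries, so mutant library 3 was above all wild type libraries and the groups overlapped. The log2 fold change was -0.37 ± 0.21 (SE, edgeR adjusted p = 0.368). The ratio of the rRNA genes was lower in all mutant libraries. There were 15.0, 14.1 and 13.9 reads on mt-Rnr2 for each on mt-Rnr1 in wild type and 13.1, 12.1 and 11.2 in mutant libraries, without overlap (14.3 ± 0.596 against 12.1 ± 0.932, SD, n = 3 each, exact permutation p of 0.1). How far the depletion step removed each rRNA was not tested.

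Complex I, which takes electrons from NADH, has 7 subunits encoded here. The first of them along the genome, mt-Nd1 (chrM:2751-3707), had a level of 8934, 9745 and 7296 in wild type and 7835, 7534 and 7027 in mutant libraries. On this scale the groups overlapped, while with TMM factors all mutant libraries were lower, at 6571 ± 209 CPM against 9008 ± 1334 (SD, n = 3 each). The log2 fold change was -0.46 ± 0.17 (SE), which edgeR did not call (adjusted p = 0.179) and DESeq2's Wald test did (adjusted p = 0.0115). With no filter on low counts edgeR called mt-Nd1 as well (adjusted p = 0.0150). TMM factors ran from 0.871 to 0.958 among wild type and from 1.01 to 1.14 among mutant libraries, so a member with an equal share of gene reads in all libraries has a fitted value below 0.

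The levels of mt-Nd2 (chrM:3914-4951) were 1461, 1443 and 1140.2 in wild type and 1367, 1301 and 1323 in mutant libraries. Those of mt-Nd4 (chrM:10167-11544) were 1553, 1309 and 1096 against 1224, 1349 and 1313. Those of mt-Nd5 (chrM:11742-13565) were 1011, 1006 and 818 against 972, 957 and 957. In all 3 genes the mutant libraries lay close together inside the wild type range, with wild type library 3 the lowest, and edgeR's log2 fold changes were -0.26 ± 0.15, -0.27 ± 0.17 and -0.21 ± 0.15 (SE), with adjusted p of 0.371, 0.414 and 0.459.

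The only protein gene of the light strand is mt-Nd6 (chrM:13552-14070, minus strand), another subunit of complex I. It had the lowest level of the complex I genes tested, 454, 494 and 425 in wild type and 562, 455 and 494 in mutant libraries. Its groups overlapped, and its log2 fold change of -0.10 ± 0.12 (SE, edgeR adjusted p = 0.685) was the one nearest to 0 among the 14. As a share of the reads on protein members, mt-Nd6 held 0.172%, 0.175% and 0.178% in wild type and 0.230%, 0.189% and 0.231% in mutant libraries, and mt-Nd5 1.35%, 1.26% and 1.21% against 1.39%, 1.40% and 1.58%. These were the only protein members whose shares did not overlap between genotypes, both higher in mutant libraries. Reads from the opposite strand at mt-Nd6 cannot be told apart without the strand setting of the counting.

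Cytochrome b, the subunit of complex III encoded here (mt-Cytb, chrM:14145-15288), had a level of 7526, 6684 and 5482 in wild type and 6700.0, 6763 and 6339 in mutant libraries. The mutant values lay within the wild type range, and edgeR gave a log2 fold change of -0.24 ± 0.18 (SE, adjusted p = 0.508). Of cytochrome c oxidase, complex IV, the catalytic subunit mt-Co1 (chrM:5328-6872) was the highest protein gene in every library and held 82.7% to 85.7% of all reads on protein members. Its level was 73658, 80082 and 68692 in wild type and 69148, 67762 and 59343 in mutant libraries, where mutant library 1 overlapped wild type library 3. With TMM factors the groups were separate, at 124463 ± 9509 against 92843 ± 2798 CPM (SD, n = 3 each). The log2 fold change was -0.42 ± 0.21 (SE), not called by edgeR (adjusted p = 0.309) and called by DESeq2's Wald test (adjusted p = 0.00264).

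The other subunits of complex IV and both ATP synthase subunits were close to absent from the count table. The gene mt-Co2 (chrM:7013-7696) had 23, 35 and 24 reads in wild type and 11, 3 and 11 in mutant libraries. For mt-Co3 (chrM:8607-9390) the counts were 37, 37 and 30 against 17, 3 and 5. For mt-Atp6 (chrM:7927-8607) they were 13, 12 and 5 against 4, 1 and 3, while mt-Atp8 (chrM:7766-7969), mt-Nd3 (chrM:9459-9806) and mt-Nd4l (chrM:9877-10173) had 0 reads in all 6 libraries. Together these 6 genes held 59 to 84 reads in a wild type library, where mt-Co1 alone had 2669307 to 3468024. Neither mt-Co2 nor mt-Co3 was called by edgeR (log2 fold change -0.49 ± 0.39, adjusted p = 0.525, and -0.89 ± 0.38, adjusted p = 0.233).

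These 6 genes are neighbours, and 5 of them share nearly all of their sequence with nuclear transcripts. In windows of 50 bases, an exact copy in an annotated nuclear transcript was found for 100% of windows of mt-Co2, 99.9% of mt-Co3, 99.5% of mt-Atp6, 98.8% of mt-Nd4l and 98.0% of mt-Nd3. The share was 62.2% for mt-Nd4, 51.1% for mt-Co1, 8.19% for mt-Nd2, 7.61% for mt-Nd5 and 1.04% for mt-Rnr2, and 0 for all other members. A read from such a stretch fits both places equally well, and the count table holds alignments that were not unique apart from the genes. The plot of all members in genome order sets the levels above these shares. The cause of the low counts was not tested.

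**Figure D3:**
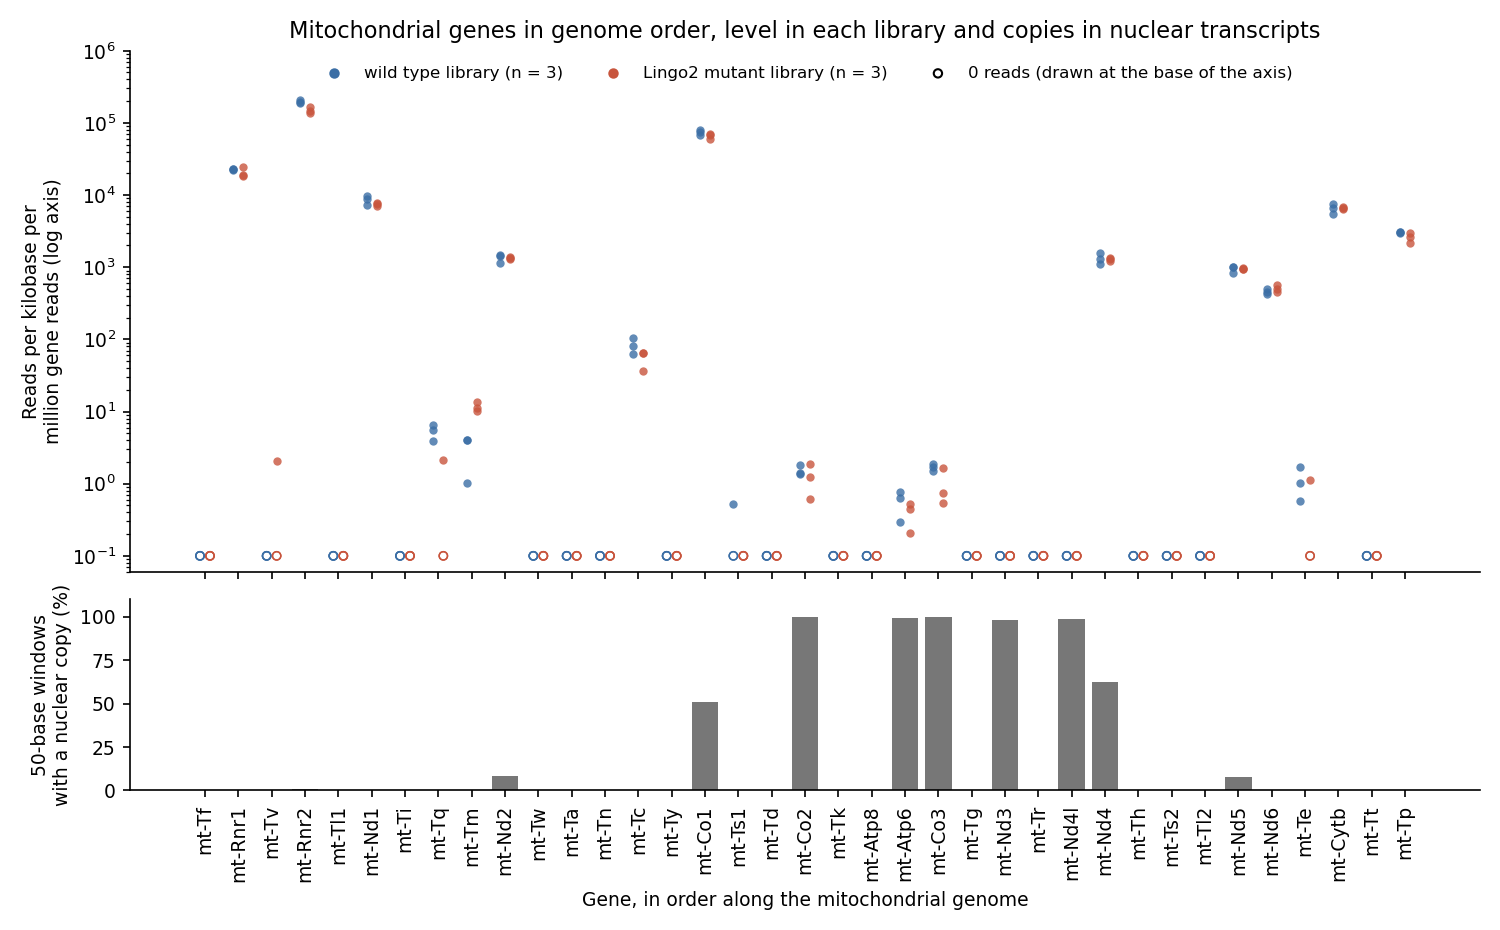
Top, level of each mitochondrial gene in RPKM, reads per kilobase and per 1000000 gene reads (log axis), 1 point per library, in order along the genome, with libraries at 0 reads as open circles. Bottom, percent of 50-base windows with an exact copy in a nuclear transcript: between mt-Co1 and mt-Nd4, levels are under 10 or at 0 where the bars are near 100%.

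A row of these copies stands on chromosome 1. There, 7 unprocessed pseudogenes on the minus strand span chr1:24611535-24616197 (GRCm38), and their exact matches begin at position 6394 and end at position 11042 of the mitochondrial genome. The bases between the pseudogenes were not compared. They are Gm29216 (mt-Co1), Gm28661 (mt-Co2), Gm10925 (mt-Atp6), Gm28437 (mt-Co3), Gm28438 (mt-Nd3), Gm10222 (mt-Nd4l) and Gm28439 (mt-Nd4). The distances between neighbouring matches are equal on both genomes, for example 233 bases between the match of mt-Co2 and that of mt-Atp6, except between those of mt-Nd3 and mt-Nd4l, which are 74 bases apart on chromosome 1 and 73 on the mitochondrial genome. The gene mt-Atp8, with 0 reads, lies mostly in the interval of 233 bases between the matches of mt-Co2 and mt-Atp6. Its last 43 bases are also the first 43 of mt-Atp6, and Gm10925 holds them without a substitution. That stretch is shorter than a window of 50 bases, and mt-Atp8 had 0 shared windows. The rest of mt-Atp8 could not be compared, because the nuclear genome itself was not searched here.

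The edge of the block on chromosome 1 falls inside mt-Co1. The stretch around it is shown because reads on mt-Co1 can come from both sides of it. The first line is bases 1054 to 1113 of mt-Co1 (chrM:6381-6440, plus strand) and the second the first 60 bases of Gm29216 (chr1:24616138-24616197, minus strand), from the transcripts of GENCODE M21, with the start of the exact copy in capitals.
mt-Co1: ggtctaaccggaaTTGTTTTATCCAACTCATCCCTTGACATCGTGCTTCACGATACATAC
Gm29216: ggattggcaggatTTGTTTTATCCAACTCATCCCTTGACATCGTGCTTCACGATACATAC
From base 1067 of mt-Co1 the letters are the same, and of the windows of 50 bases in the whole gene 430 are found in Gm29216. Another copy of mt-Co1 on chromosome 2, Gm13340 (chr2:22588103-22589647, minus strand), holds 411 of its windows.

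Over the aligned length, 681 bases of mt-Co2, 678 of mt-Atp6, 783 of mt-Co3, 294 of mt-Nd4l and 876 of mt-Nd4 had no substitution against their copies. The copy of mt-Nd3 had 1 substitution in 345 bases. It is T3C, where positions count from 1 at the first base of mt-Nd3, and it stands at position 9461 of the mitochondrial genome. That mitochondrial position is known to differ between mouse strains, and the labels give no strain. The first 60 bases of mt-Nd3 (chrM:9459-9518, plus strand) and Gm28438 (chr1:24613060-24613119, minus strand) are shown because reads were counted on the copy and none on the gene, with the base that differs in capitals.
mt-Nd3: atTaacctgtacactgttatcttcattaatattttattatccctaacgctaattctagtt
Gm28438: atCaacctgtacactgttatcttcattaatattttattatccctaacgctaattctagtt
Gm28438 had 386, 428 and 305 reads in wild type and 238, 112 and 115 in mutant libraries, where mt-Nd3 had 0. The other copies in the block held 1 to 131 reads in a wild type library, and the 7 together 596 to 800, against 203 to 371 in a mutant library.

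The counted copies were compared between genotypes in the same test. Gm28438 did not differ beyond its error, at 15.5 ± 2.40 CPM in wild type and 14.5 ± 1.63 in mutant libraries (SD, n = 3 each, log2 fold change -0.09 ± 0.14, edgeR adjusted p = 0.783). The copy of mt-Co1 on chromosome 2, Gm13340, fell from 25.8 ± 3.82 to 16.97 ± 1.91 CPM (SD, n = 3 each), with 657, 647 and 544 reads in wild type and 231, 154 and 137 in mutant libraries (log2 fold change -0.61 ± 0.13, edgeR adjusted p = 0.0299). The copy of mt-Co2 on chromosome 1, Gm28661, was lower in all mutant libraries, at 1.40 ± 0.191 against 2.57 ± 0.350 CPM, and was not called (-0.89 ± 0.26, edgeR adjusted p = 0.0947). Gm28437 was also lower in all of them and not called (-0.50 ± 0.21, edgeR adjusted p = 0.236), beside 11.8% of all genes lower without overlap. The groups overlapped for Gm29216 (-0.30 ± 0.19, edgeR adjusted p = 0.427) and Gm10925 (-0.07 ± 0.40, edgeR adjusted p = 0.947). Of the further copies on chromosome 2, Gm13341 (mt-Co2) had 115, 165 and 105 reads against 44, 31 and 31 (-0.62 ± 0.20, edgeR adjusted p = 0.128) and Gm13339 (mt-Nd2) 14, 21 and 8 against 2, 7 and 3 (-0.58 ± 0.60, adjusted p = 0.646). The copies Gm11512 (mt-Co1), Gm20594 (mt-Rnr2), Gm11407 and Gm4076 (both mt-Nd5) held at most 9 reads in a library. Whether reads on these copies come from the nucleus or the mitochondrion cannot be told apart in the count table.

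The ATP synthase genes also share bases with each other. The last 43 bases of mt-Atp8 are the first 43 of mt-Atp6 (chrM:7927-7969, plus strand). They are shown with the start codon of mt-Atp6 and the stop codon of mt-Atp8 in capitals, from GENCODE M21.
mt-Atp6: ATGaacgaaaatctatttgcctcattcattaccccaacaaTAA
The genes mt-Nd4l and mt-Nd4 overlap by 7 bases in the same way. How reads over such overlaps were assigned is not given in the sources used here.

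Among the tRNA genes nearly all reads fell on mt-Tp, the tRNA for proline, with 96.4% to 98.4% of tRNA reads. It stands at the end of the annotated genes and on the light strand, next to the control region that holds the promoters, with mt-Tt touching it on the other side. The tRNA for cysteine, mt-Tc, lies beside the light-strand origin of replication, 32 bases from its neighbour mt-Tn. The tRNA for methionine, mt-Tm, also serves to start translation in mitochondria. These 3 were the tRNA genes tested and are shown whole, from GENCODE M21 (chrM:15356-15422, minus strand, chrM:5192-5257, minus strand, and chrM:3845-3913, plus strand), with the anticodon in capitals.
mt-Tp: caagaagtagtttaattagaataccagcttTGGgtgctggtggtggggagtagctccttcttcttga
mt-Tc: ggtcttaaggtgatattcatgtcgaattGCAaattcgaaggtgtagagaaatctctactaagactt
mt-Tm: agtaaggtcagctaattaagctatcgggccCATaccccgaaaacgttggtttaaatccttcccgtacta
Mature tRNAs are shorter than most library fragments, so reads over these genes need not come from the mature molecule.

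The gene mt-Tp had 5136, 5573 and 5197 reads in wild type and 2326, 1426 and 1254 in mutant libraries, or 236, 208 and 221 CPM against 160.1, 178 and 145 CPM with TMM factors. With TMM factors every mutant library was lower than every wild type library, while on the RPKM scale the groups overlapped, at 3065, 2968 and 3084 against 2661, 3014 and 2189. With TMM factors the level fell by 0.46 on the log2 scale (SE 0.11, edgeR adjusted p = 0.0418), the only call among the members, from 221 ± 14.2 to 161 ± 16.3 CPM (SD, n = 3 each). The call did not hold when a library was left out, other than wild type library 2: the adjusted p was 0.102 without wild type library 1, 0.0621 without wild type library 3, and 0.106, 0.0643 and 0.161 without mutant libraries 1, 2 and 3, with the same sign throughout. Without strand information for the counting, reads from the opposite strand at mt-Tp cannot be told apart.

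Reads on mt-Tc numbered 104, 193 and 135 in wild type and 55, 17 and 37 in mutant libraries, or 5.90 ± 1.21 against 3.39 ± 1.13 CPM (SD, n = 3 each). All mutant libraries were lower with TMM factors, and edgeR's log2 fold change of -0.78 ± 0.25 (SE) was not called (adjusted p = 0.120). With no filter on low counts edgeR called mt-Tc (adjusted p = 0.00693). Reads on mt-Tm went the other way at very low counts, with 7, 2 and 7 in wild type and 10, 5 and 8 in mutant libraries, or 0.231 ± 0.136 against 0.745 ± 0.159 CPM. Its log2 fold change was 1.69 ± 0.53 (SE, edgeR adjusted p = 0.116), and it passed the filter through the mutant libraries alone. The tRNA for glutamine, mt-Tq, had 7, 13 and 10 reads against 2, 0 and 0, the tRNA for glutamate, mt-Te, 1, 2 and 3 against 1, 0 and 0, and mt-Tv and mt-Ts1 had 1 read each in all. The other 15 tRNA genes had no read in any library.

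Scaling to the mitochondrial reads in place of all genes asks which members moved against the other members. Under this scaling the median of all genes tested moved to 0.55 on the log2 scale. Of all genes, 57% were called higher, 0.8% lower and 57.8% in either direction, so calls of members are read only against the other members. The adjusted p is still taken over all genes. With so many of them shifted by the scaling, it is lenient for a member and is not an error rate among the members. By edgeR's test, 2 members were called higher and 0 lower, and 11 of the 14 had a fitted value above 0. The light-strand gene mt-Nd6 rose by 0.45 ± 0.14 against the other members (log2, SE, adjusted p = 0.0110), from 0.0507% ± 0.00349 to 0.0691% ± 0.00682 of mitochondrial reads (SD, n = 3 each). It was no longer called without mutant library 1 (edgeR adjusted p = 0.0800) or when scaled to the reads on protein members alone (0.0912). The other call was mt-Tm (2.23 ± 0.54, edgeR adjusted p = 0.00322). It rests on 2 to 10 reads a library, and mt-Tm passed the filter only through the libraries where it is high, so nothing is read from that call.

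None of the other 12 was called under this scaling. For mt-Rnr2 the value was -0.08 ± 0.16, for mt-Rnr1 0.16 ± 0.15, for mt-Co1 0.13 ± 0.16 and for mt-Tp 0.10 ± 0.15 (log2, SE). The values of the complex I genes mt-Nd2 and mt-Nd4 were 0.29 ± 0.14 and 0.29 ± 0.15 (edgeR adjusted p = 0.0853 and 0.104). Another gene of complex I, mt-Nd5, had 0.34 ± 0.14 (edgeR unadjusted p = 0.0293, adjusted p = 0.0506). For mt-Cytb the value was 0.32 ± 0.15 (edgeR unadjusted p = 0.0494, adjusted p = 0.0773). Without mutant library 3 the adjusted p of mt-Nd5 was 0.0464. Since the adjustment runs over all genes, most of them shifted by the scaling, nothing is read from how near these values lie to 0.05. Since mt-Rnr2 holds 60.05% to 67.7% of mitochondrial reads, this scaling follows mt-Rnr2 closely. The plot of fold changes under both scalings shows the shift.

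**Figure D4:**
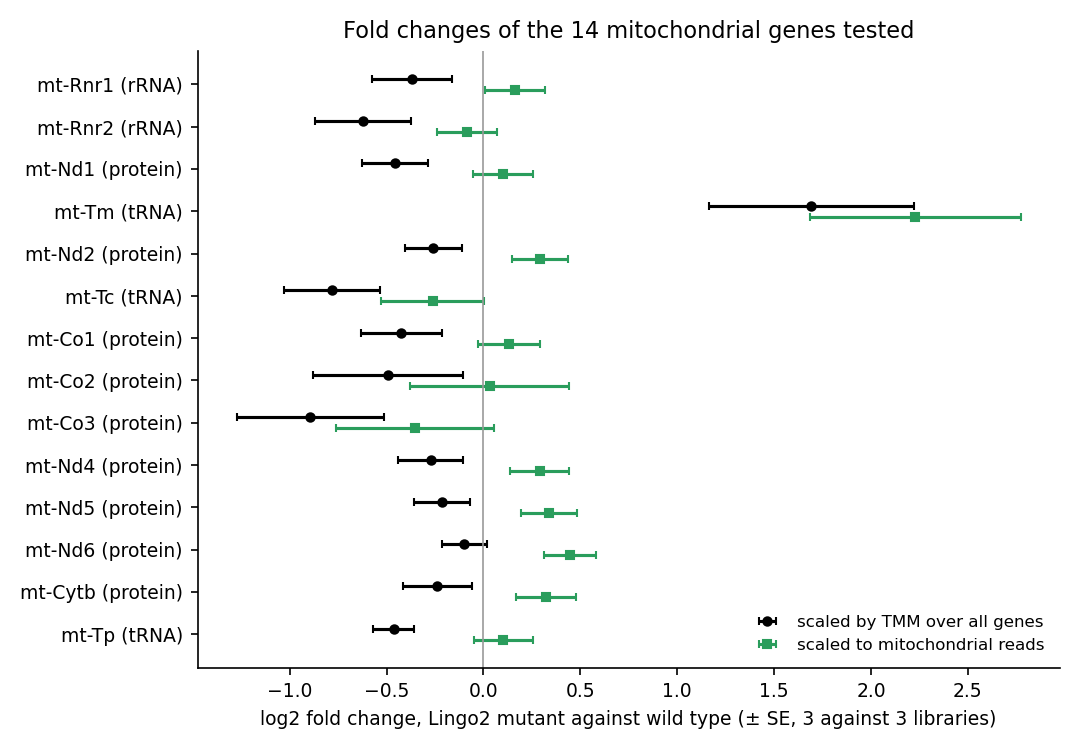
Log2 fold change, mutant against wild type (horizontal axis, bars are SE, 3 against 3 libraries), of the 14 mitochondrial genes tested, with TMM factors over all genes (circles) and with scaling to mitochondrial reads (squares). With TMM factors 13 of 14 lie below 0, and with mitochondrial scaling 11 of 14 lie above it.

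The nuclear genes whose products copy, transcribe, process and translate the mitochondrial genome were taken from 9 lists. Of 191 such genes 190 were tested, and edgeR called 1 higher and 0 lower at an adjusted p under 0.05, beside 1.04% and 1.52% of all genes. Their median log2 fold change was 0.05. The one called was Pprc1, a coactivator related to PGC-1 that acts on regulators of mitochondrial biogenesis, which rose from 15.1 ± 1.23 to 24.4 ± 6.01 CPM (SD, n = 3 each, log2 fold change 0.71 ± 0.16, edgeR adjusted p = 0.0394). Mutant library 1 was highest, at 31.3 CPM, against 21.2 and 20.7 in mutant libraries 2 and 3 and at most 15.9 in wild type. No gene of the lists was called without wild type library 1, wild type library 2, mutant library 1 or mutant library 2.

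Of the 10 genes of mitochondrial transcription none was called, and the list's median log2 fold change was 0.10. The elongation factor Tefm had 4.95 ± 0.814 CPM in wild type and 3.16 ± 0.877 in mutant libraries (log2 fold change -0.60 ± 0.23, edgeR adjusted p = 0.189). For Mrpl12, a ribosomal protein that stands in 2 of the lists, the levels were 10.5 ± 0.549 and 13.2 ± 1.34 CPM (0.32 ± 0.13, edgeR adjusted p = 0.198). Of the 16 replication genes none was called, with a median of 0.05. The catalytic subunit of the mitochondrial DNA polymerase, Polg, was higher in all mutant libraries, at 52.0 ± 1.21 against 41.6 ± 0.877 CPM, and missed the threshold (0.32 ± 0.08, edgeR adjusted p = 0.0595). The membrane protein Atad3a, which is tied to mitochondrial DNA, had 33.3 ± 5.88 against 24.4 ± 2.11 CPM (0.46 ± 0.13, edgeR adjusted p = 0.0818).

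Neither the 22 genes of RNA processing and decay (median 0.04) nor the 22 of rRNA and tRNA modification (median 0.05) held a called gene. The RNA-binding proteins Tbrg4 and Fastkd1 had log2 fold changes of 0.40 ± 0.10 and 0.40 ± 0.11 (SE, edgeR adjusted p = 0.0552 and 0.0744). The modification enzymes Alkbh1 and Mrm1 had 0.35 ± 0.10 and 0.43 ± 0.14 (edgeR adjusted p = 0.0967 and 0.123). None of the 4, which were named for the smallest p of their lists, passed the test.

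The 21 aminoacyl tRNA synthetases and related enzymes had the highest median of the lists, 0.18, and 0 calls, with 4 of 21 below 0. The methionyl tRNA synthetase Mars2 had 18.1 ± 0.232 CPM in wild type and 24.2 ± 2.25 in mutant libraries (0.42 ± 0.10, edgeR adjusted p = 0.0521), and Qrsl1, a subunit of the enzyme that makes glutaminyl tRNA, 8.87 ± 0.425 and 11.3 ± 1.08 CPM (0.36 ± 0.13, adjusted p = 0.164). The 13 translation factors had a median of 0.03 and 0 calls. Tsfm, an elongation factor, and Oxa1l, which inserts new proteins into the inner membrane, had 0.42 ± 0.16 and 0.24 ± 0.11 (edgeR adjusted p = 0.183 and 0.272).

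The proteins of the mitochondrial ribosome, which bind the transcripts of mt-Rnr1 and mt-Rnr2, were not called in either direction. The 29 small-subunit proteins had a median log2 fold change of 0.11, with Mrps26 at 0.35 ± 0.13 and Mrps23 at -0.26 ± 0.11 (SE, edgeR adjusted p = 0.183 and 0.218). Of the 49 large-subunit proteins 48 were tested, with a median of 0.0035, and Mrpl14 stood at -0.32 ± 0.12 (edgeR adjusted p = 0.182). The 11 regulators of biogenesis, which include Pprc1, had a median of -0.02. Thus the rRNA genes had fitted values of -0.62 and -0.37, while the proteins of their subunits had medians of 0.0035 and 0.11, a difference that was not tested.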

How the data were processed

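Per the labels' protocols, total RNA libraries were made with a stranded kit and Ribo-Zero Gold. Trimmomatic 0.39, STAR, HTSeq, DESeq2 and the build GRCm38 are named per the submitters' processing notes. Which annotation release and strand setting the counting used is not given in the sources used here. The deposited count table holds raw read counts per gene and 5 summary lines, which entered neither library sizes nor tests. The authors' deposited comparison holds normalized signal, log2 fold changes, a test score and p-values, and it served for symbols and for the authors' calls. Its signal columns were used only to check the direction of its fold changes.

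Here, shares were computed per library from counts, and compared by exact 2-sided permutation over libraries, with Benjamini-Hochberg adjustment over 9 shares and ratios. The test across all genes was that of edgeR 4.0.16 under R 4.3.3, on raw counts (filterByExpr, TMM factors, robust quasi-likelihood F test on genotype, Benjamini-Hochberg adjustment over 16757 genes, threshold 0.05), a script that was tested on simulated data. SE was taken as the size of the log2 fold change over the root of F, and CPM was scaled with TMM factors. Alternatives were DESeq2 1.42.0, limma 3.58.1, other scalings, no filter, each library left out and a replicate block. Positions, strands and sequences are those of GENCODE M21. Exact copies were sought in nuclear transcript sequences, although a search of the nuclear genome had been planned, so copies outside annotated transcripts are missed. Alignments that are not unique stand on a summary line apart from the genes, which can lower members with copies.

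Members and lists were chosen with earlier results of these data known. Values per library are given for rRNA and protein genes and for the 5 tRNA genes with most reads, and of each nuclear list for up to 4 called genes, or, in a list with no call, for the 2 of smallest p. A further nuclear copy, on a chromosome the text does not name, is not reported here.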

Additional observations from a re-analysis of the deposited data

How the results depend on the processing

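By edgeR, 1 of 14 members was called, beside 175 higher and 255 lower of all 16757 genes. With no filter on low counts it was 4 of 19, beside 562 and 931 of 28829. DESeq2's Wald test called 4 of 13, beside 250 and 405 of 15414. Both called mt-Rnr2, mt-Nd1 and mt-Tp, while mt-Tc was called only with no filter and mt-Co1 only by DESeq2's Wald test. The count of members was 0 with the replicate number as a block. With a library left out it was 0 to 1, beside 59 to 207 genes higher and 109 to 467 lower. It was 1 with DESeq2's or upper quartile factors, with scaling from nuclear gene reads, with limma voom, and with an added filter of at least 10 reads in total, chosen after seeing the data. Over all genes these gave, in that order, 175 higher and 259 lower, 152 and 280, 175 and 255, 140 and 178, and 223 and 328. The last is of 21616 genes and the others of 16757. The replicate block also ended the call of mt-Tp (edgeR adjusted p = 0.0888) and brought the nuclear lists from 1 called gene to 0, and a left-out library gave 0 to 1 there. Deviations of same-numbered libraries from their group means had correlations of -0.13, 0.13 and -0.02, and not every library correlated best with its own number. Deviations within a group are tied to each other through its mean, so this check cannot tell whether the numbers pair the samples. Among members and listed genes the block changed no other call, and over all genes it gave 130 higher and 232 lower. Scaled to mitochondrial reads, 2 members were called, beside 9544 higher and 134 lower of all 16757 genes. When scaled to protein member reads, 1 member was called, beside 6517 genes higher and 214 lower. With a library left out, 1 to 3 members were called under scaling to mitochondrial reads, beside 6548 to 10326 genes higher and 89 to 247 lower. Over all genes the split of 175 higher and 255 lower became 562 and 931 with no filter, 250 and 405 by DESeq2's Wald test, 59 and 115 without mutant library 2, 71 and 109 without mutant library 3, and 207 and 467 without wild type library 3. Leaving mt-Rnr2 out of numerator and denominator changed the differences in shares of gene reads (mutant minus wild type, in points). They were then -4.38 for all members, -0.553 for rRNA, -3.82 for protein and -0.00687 for tRNA genes. The differences of these 3 classes in shares of mitochondrial reads reversed, to 0.238, -0.232 and -0.00608, with groups that overlapped in each. The ratio of the rRNAs has no value without mt-Rnr2. Without members copied over 50% of 50-base windows, the protein share of gene reads differed by -0.152 and the light-strand share by 0.0343 points, the latter with groups that overlapped. With a library left out, the differences in shares of gene reads ranged from -10.0 to -7.95 for all members, -9.05 to -6.29 for rRNA, -2.04 to -0.930 for protein and -0.00420 to -0.00154 for tRNA genes. Those in shares of mitochondrial reads ranged from -5.31 to -1.74 for rRNA, 1.75 to 5.31 for protein, -0.00157 to 0.00808 for tRNA and 0.0172 to 0.0287 for light-strand genes, and the ratio of mt-Rnr2 to mt-Rnr1 from -2.66 to -1.73. Depth limits the members under the floor of 3 reads, and the causes of these changes were not tested.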
